A study of Mus musculus with 9 samples.

Results

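Elastic fibre and microfibril genes were read on expression arrays of adult mouse hearts, with and without Cre-driven deletion of Ezh2, the gene of a Polycomb methyltransferase. The set holds 10 listed genes: Eln, the fibrillins Fbn1 and Fbn2, the fibulins Fbln1, Fbln2 and Fbln5, the microfibril-associated proteins Mfap2, Mfap4 and Mfap5, and Emilin1. Each gene was read at its brightest single-symbol probe set, by the mean of all 9 arrays. This gave 9 measured genes, with 1 probe set each, of 19935 genes in the table; Fbn1 had no probe set under its name in the annotation used and was not analysed here.

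A set of 4 hearts, called Ezh2-deficient, had the genotype Ezh2f/f;Mef2cAHF::Cre, in which an enhancer of Mef2c that is active in the anterior heart field drives Cre recombinase. A set of 5 hearts was labelled wild type, with the genotype Ezh2f/f and no Cre, although their titles read f/wt, and the labels do not settle which holds. All animals were adult, on a mixed C57BL/6 background, and the right ventricle together with the interventricular septum was taken from each. The Cre acts in a lineage that supplies part of these cells, so other cells of the sample kept Ezh2, and loss of Ezh2 and presence of Cre cannot be told apart. Values are log2 expression, so that a difference of 1 is a 2-fold change. Differences are Ezh2-deficient minus wild type.

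Elastic fibres give arteries, valves and the heart wall their recoil. Tropoelastin, the product of Eln, is laid down on a scaffold of fibrillin microfibrils, joined there by fibulins, and crosslinked by lysyl oxidases. The microfibrils also carry microfibril-associated glycoproteins and emilins, and hold latent growth factors of the transforming growth factor beta (TGF-beta) family. In the heart the fibres are made mostly by fibroblasts, valve cells and vascular smooth muscle. In a bulk sample, a change in the number of cells of a type and a change in RNA per cell cannot be told apart.

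Among the array facts that touch these genes, array medians lay between 7.19 and 7.25, and wild-type arrays 4 and 5 stood apart from the others on the first principal component of all probe sets, which held 30.7% of the variance. Ezh2-deficient array 3 stood apart on the second, and had the highest erythrocyte and epicardial marker means of all arrays, 0.78 and 0.53 above the wild-type means; without it the median difference of the 9 measured genes was 0.53. The Y-linked genes were low in Ezh2-deficient arrays 1 and 3 and in wild-type array 4, so sex was not balanced between the groups. With their mean as a covariate the 9 measured genes had a median difference of 0.50, against 0.48 without it. Titles carry a letter, e on 2 Ezh2-deficient and 2 wild-type arrays and x on 2 and 3, whose meaning the labels do not give. A prime mark, also without a given meaning, follows the x on Ezh2-deficient array 2 and wild-type arrays 3 and 5. Ezh2-deficient array 3 and wild-type array 4 carry the x without it. The Ezh2 probe set itself differed by 0.15 (SE 0.07, limma adjusted p = 0.485), and where its probes lie in the transcript is not known here, so it does not check the labels. The 11 cardiomyocyte markers all read above every array median, so heart muscle was present. Whether the labelled part of the heart was taken was not tested. The atrial genes Myl7, Myl4 and Sln varied widely within both groups, Myl7 from 8.07 to 11.63 in Ezh2-deficient and from 6.97 to 11.10 in wild-type hearts. With the mean of these 3 genes as a covariate, a setting added after their spread was seen, the 9 measured genes differed by 0.15 to 0.93, against 0.16 to 0.93 without it.

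All 9 measured genes had a higher mean in Ezh2-deficient hearts, as had 48.4% of all genes, by 0.16 to 0.93 on the log2 scale, with a median difference of 0.48. The microfibril-associated genes Mfap4 and Mfap5 and elastin itself differed most, and Fbln1 least. In limma's test, adjusted over all 28815 probe sets, 0 of the 9 passed (adjusted p = 0.128 to 0.629), where 0.0451% of all genes passed. At an unadjusted p under 0.05, 7 of the 9 were higher, against 5.77% of all genes. The groups did not overlap at 6 of the 9, each time with the Ezh2-deficient hearts above, against 2.1% of all genes. The median difference over all genes was -0.003. The genes were listed with earlier results of these data known, so these counts describe them and are no independent support.

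**Figure D1:**
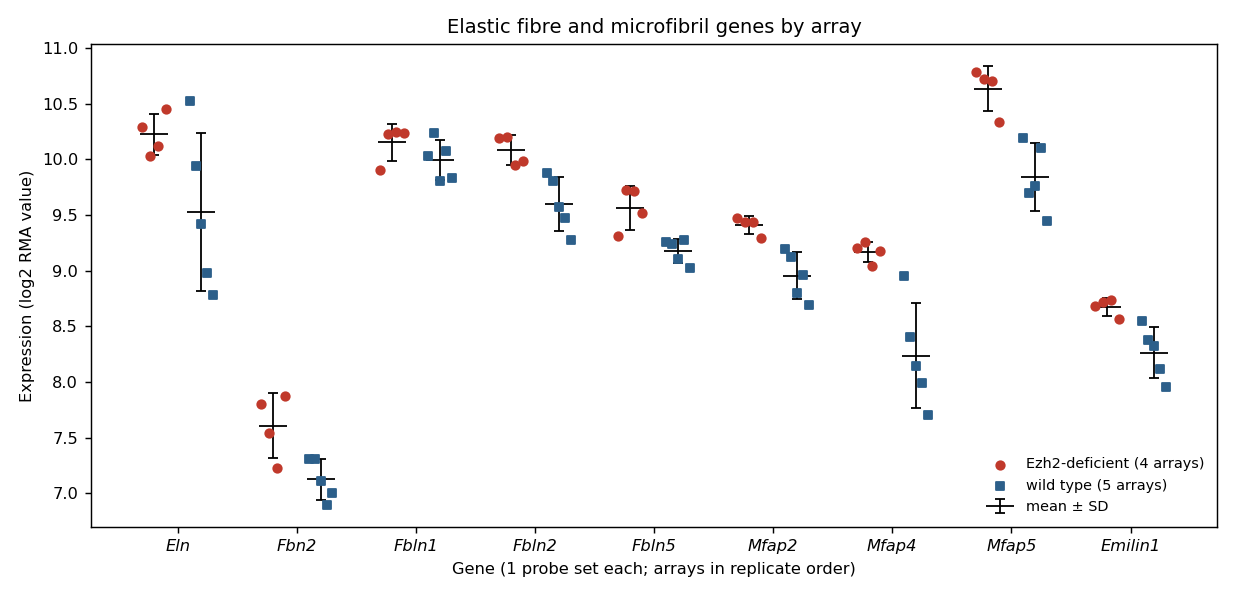
Expression (log2 value, vertical axis) of the 9 measured genes on each of the 4 Ezh2-deficient arrays (circles) and 5 wild-type arrays (squares), with the mean ± SD of each group. The circles lie above every square for Fbln2, Fbln5, Mfap2, Mfap4, Mfap5 and Emilin1, and the wild-type spread is widest for Eln.

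Elastin, the core protein of the fibre, varied more between wild-type hearts than between Ezh2-deficient ones. Eln read 10.29, 10.03, 10.12 and 10.46 in the Ezh2-deficient hearts, against 10.53, 9.94, 9.42, 8.98 and 8.79 in the wild-type hearts. The highest value of all was in wild-type array 1, while the other 4 wild-type hearts lay below every Ezh2-deficient heart. The means were 10.23 ± 0.19 (SD, n = 4) in Ezh2-deficient and 9.53 ± 0.71 (SD, n = 5) in wild-type hearts, a 1.62-fold difference. The difference of 0.70 (SE 0.31, 95% interval -0.006 to 1.40) did not pass limma's test (adjusted p = 0.473). Its wild-type SD was larger than that of 99.9% of genes, and its SD among Ezh2-deficient hearts larger than that of 88.5%. Without wild-type arrays 4 and 5, which were the lowest, the difference was 0.26 (adjusted p = 0.743).

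Fbn2 encodes fibrillin-2, a microfibril subunit made mostly before birth. It read 7.80, 7.54, 7.23 and 7.87 in Ezh2-deficient hearts, against 7.31, 7.31, 7.11, 6.90 and 7.00 in wild-type hearts. Ezh2-deficient arrays 1, 2 and 4 lay above every wild-type heart, and array 3 lay within the wild-type range. The means were 7.61 ± 0.29 and 7.13 ± 0.19 (SD, n = 4 and 5), a difference of 0.48 (SE 0.14, adjusted p = 0.266). Both means lay near the array medians. With the title letter and its prime mark as a block, Fbn2 passed (difference 0.47, limma adjusted p = 0.0313), and it was the 1 gene of the set to do so. In that setting 27 of all 28815 probe sets passed, against 10 without the block. Within the x titles without a prime, the block holds only Ezh2-deficient array 3 and wild-type array 4.

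The fibulins join elastin to microfibrils and to basement membranes. Fibulin-5 binds elastin and the crosslinking enzyme lysyl oxidase-like 1, and fibulin-1 and fibulin-2 are abundant in the cushions and valves of the developing heart. Promoters of 6 of the 10 listed genes were in the RefSeq table (build GRCm38.p6), each 300 bases, from 250 before the start of the gene to 50 after it. Of the measured genes in that table Fbln2 had the largest and Fbln1 the smallest difference, and their promoters are shown for that contrast, from chr6:91212514-91212813 and chr15:85205699-85205998, both on the + strand. Capitals mark CpG dinucleotides, the sites that are dense at many targets of Polycomb.
Fbln2: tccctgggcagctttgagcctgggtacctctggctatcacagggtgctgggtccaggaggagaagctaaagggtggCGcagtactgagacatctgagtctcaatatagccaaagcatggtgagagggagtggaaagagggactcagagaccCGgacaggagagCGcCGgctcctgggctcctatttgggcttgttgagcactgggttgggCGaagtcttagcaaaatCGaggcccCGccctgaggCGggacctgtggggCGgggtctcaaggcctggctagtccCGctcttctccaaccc
Fbln1: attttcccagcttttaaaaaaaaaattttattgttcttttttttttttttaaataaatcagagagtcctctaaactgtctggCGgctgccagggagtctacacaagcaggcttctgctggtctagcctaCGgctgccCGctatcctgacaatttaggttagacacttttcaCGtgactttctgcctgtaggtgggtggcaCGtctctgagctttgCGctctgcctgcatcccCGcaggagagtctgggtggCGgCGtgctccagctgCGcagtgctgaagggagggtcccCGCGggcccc
The Fbln2 promoter held 10 CpG at a GC content of 60.3%, and this Fbln1 promoter held 12 at 51.7%, against medians of 7 and 52.7% over 32851 promoters of the same length in the table. A second Fbln1 entry, at chr15:85205758-85206057, held 24 CpG. The Fbln5, Mfap2 and Emilin1 promoters listed first for their genes held 24, 22 and 6. The motif GGGCGG, searched on both strands, was in the Fbln2, Fbln5 and Mfap2 promoters and in that of Fbn1, which is 4 of the 6 genes by their first entry, against 35.7% of all promoters. The motif CAGAC, also on both strands, was in 3 of the 6 (Fbln1, Fbln5 and Emilin1), against 49.6% of all. CCAAT was in 2 of the 6 (37.4% of all), and TATAAA (13.6% of all) and the CArG box (1.63% of all) in 0.

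Fbln2 read 10.20, 10.20, 9.95 and 9.99 in Ezh2-deficient hearts, against 9.88, 9.81, 9.57, 9.47 and 9.27 in wild-type hearts. All Ezh2-deficient hearts lay above all wild-type hearts, with a gap of 0.07 between the nearest. The difference was 0.48 (SE 0.12, 95% interval 0.21 to 0.75, adjusted p = 0.210), or 1.40-fold.

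Fbln5 read 9.31, 9.73, 9.71 and 9.52 in Ezh2-deficient hearts, against 9.26, 9.24, 9.10, 9.28 and 9.03 in wild-type hearts. The groups did not overlap, but the gap was 0.04, between Ezh2-deficient array 1 and wild-type array 4. The difference was 0.39 (SE 0.09, adjusted p = 0.196).

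Fbln1 read 9.90, 10.23, 10.25 and 10.23 in Ezh2-deficient hearts, against 10.03, 10.24, 9.81, 10.08 and 9.83 in wild-type hearts. The groups overlapped, and wild-type array 2 was about as high as Ezh2-deficient arrays 2, 3 and 4. The difference was 0.16 (SE 0.10, 95% interval -0.08 to 0.39, adjusted p = 0.629), and 0.24 without Ezh2-deficient array 1, the low array of its group. Its direction turned within the title letter e, where it was -0.0675.

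The 3 microfibril-associated proteins are unlike in structure: Mfap2 and Mfap5 encode the related small glycoproteins MAGP-1 and MAGP-2, which bind fibrillin, while Mfap4 encodes a fibrinogen-like protein that binds elastin and fibrillin. Mfap4 read 9.20, 9.26, 9.04 and 9.18 in Ezh2-deficient hearts, against 8.95, 8.40, 8.14, 7.99 and 7.70 in wild-type hearts. The Ezh2-deficient hearts lay close together and above every wild-type heart, of which array 1 was nearest. The means were 9.17 ± 0.09 and 8.24 ± 0.47 (SD, n = 4 and 5), a 1.91-fold difference (0.93, SE 0.21, 95% interval 0.47 to 1.40, adjusted p = 0.157). Without wild-type array 1 the difference was 1.11 and passed limma's test (adjusted p = 0.0461); it did not pass without any other array (adjusted p up to 0.371).

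Mfap5 had the smallest unadjusted p of the set, 0.000444, at rank 89 of the 19935 genes. It read 10.79, 10.72, 10.70 and 10.34 in Ezh2-deficient hearts, against 10.19, 9.70, 9.77, 10.10 and 9.44 in wild-type hearts. The groups were 0.15 apart at the nearest arrays, the widest gap among the 9 genes. The fold was 1.74 (difference 0.80, SE 0.15, 95% interval 0.45 to 1.14, adjusted p = 0.128). Without wild-type arrays 4 and 5 the difference was 0.75, the least moved of the larger differences, although its adjusted p was then 0.394.

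Mfap2 read 9.47, 9.44, 9.44 and 9.30 in Ezh2-deficient hearts, against 9.19, 9.12, 8.80, 8.97 and 8.70 in wild-type hearts. All Ezh2-deficient hearts were above all wild-type hearts, by at least 0.10. The difference was 0.46 (SE 0.10, adjusted p = 0.150).

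Emilin1 encodes emilin-1, a glycoprotein at the border of elastin and microfibrils that restrains the processing of TGF-beta precursors. It read 8.68, 8.72, 8.73 and 8.56 in Ezh2-deficient hearts, against 8.54, 8.38, 8.32, 8.12 and 7.96 in wild-type hearts. The groups did not overlap, with a gap of 0.02 between Ezh2-deficient array 4 and wild-type array 1. The difference was 0.41 (SE 0.11, adjusted p = 0.225).

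Whether genes that share a name, as fibulin or as microfibril-associated, differed by unequal amounts was tested on the log2 ratio of each pair per array. The test, added after the values were seen, was an exact two-sided permutation test over all 126 assignments of arrays (smallest possible p 0.00794). In 6 pairs, 3 of fibulins and 3 of microfibril-associated genes, 0 had an adjusted p under 0.05 (Benjamini-Hochberg over the 6), and 3 had an unadjusted p under 0.05. The difference of Fbln5 exceeded that of Fbln1 by 0.23 (exact permutation p = 0.0238, adjusted 0.0794). The difference of Mfap4 exceeded that of Mfap2 by 0.48 and that of Mfap5 exceeded that of Mfap2 by 0.34 (exact permutation p = 0.0397 and adjusted 0.0794 for each). Fbln2 against Fbln1 gave 0.33 (exact permutation p = 0.0794), Fbln2 against Fbln5 0.10 (0.595) and Mfap4 against Mfap5 0.13 (0.571).

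The arrays ranked alike at many of the genes. Wild-type array 5 was the lowest of all 9 arrays at 7 of the 9 genes, the exceptions being Fbn2, lowest in wild-type array 4, and Fbln1, lowest in wild-type array 3. Wild-type array 1 was the highest wild-type array at 6 of the 9, and at 1 more, Fbn2, it was tied with array 2. The mean of the 9 genes, centred on the wild-type mean, lay between 0.49 and 0.57 in the 4 Ezh2-deficient hearts, against -0.34 to 0.35 in the 5 wild-type hearts. The spread of this mean was 0.03 (SD, n = 4) among Ezh2-deficient and 0.26 (SD, n = 5) among wild-type hearts. Fbln2, Mfap2 and Emilin1 followed this mean profile most closely, at root mean square distances of 0.08, 0.09 and 0.11 over the 9 arrays, and Eln least, at 0.35. Of all other genes, the 3 nearest to the profile by the same distance were Vim (0.06), encoding the intermediate filament of mesenchymal cells, Igfbp7 (0.09), a secreted binding protein of insulin-like growth factors, and Ctsz (0.09), a lysosomal protease. Being chosen for that likeness, their own differences of 0.54, 0.57 and 0.46 are descriptions only.

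The differences were larger within the title letter x than within e at 8 of the 9 genes, all but Fbn2, as at 55.4% of all genes. Wild-type arrays 4 and 5, which stood apart on the first component, are both letter x arrays, and their part in this contrast was not tested. The mean of the 9 genes, centred on the wild-type mean, was -0.08, -0.09 and -0.34 in wild-type arrays 3, 4 and 5 of letter x, and 0.35 and 0.16 in wild-type arrays 1 and 2 of letter e. Within x, where both Ezh2-deficient arrays lay above the 3 wild-type arrays at all 9 genes (as did those of 13.9% of all genes), the median difference was 0.62. Within e it was 0.23, and the groups did not overlap at 7 of the 9 genes (14.6% of all genes). For Eln the means were 10.37 and 10.23 in Ezh2-deficient and wild-type hearts of letter e, and 10.08 and 9.06 in those of letter x. Its difference was thus 0.14 within e and 1.02 within x. For Mfap4 it was 0.51 within e and 1.21 within x, and for Mfap5 0.62 and 0.94. The interaction of genotype and letter passed limma's test at 0 of the 9 genes (adjusted p = 0.732 to 0.814), with 5 at an unadjusted p under 0.05, against 5.61% of all genes.

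**Figure D2:**
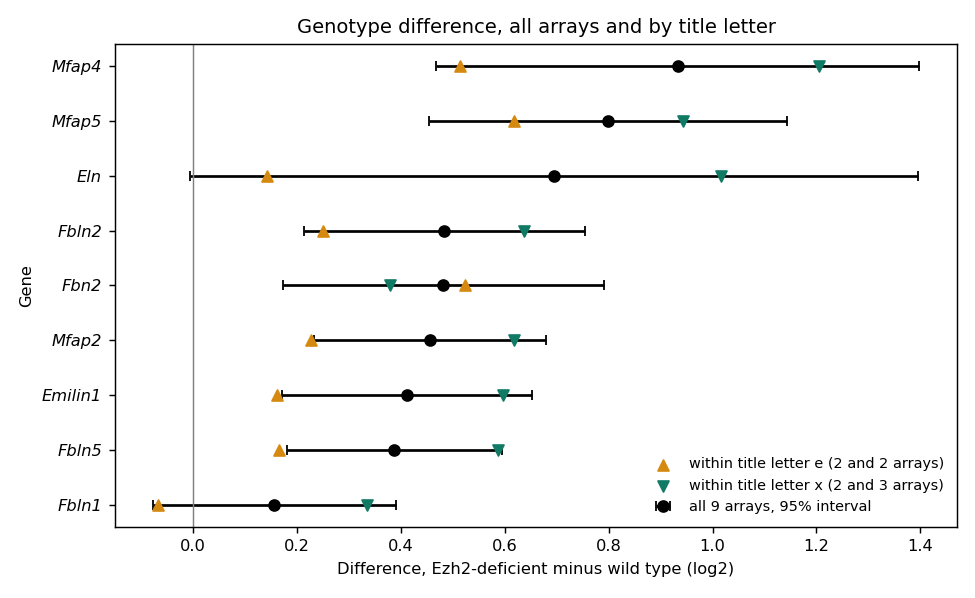
Difference of each gene (log2, Ezh2-deficient minus wild type, horizontal axis) over all 9 arrays with its 95% interval (circles), within title letter e (upward triangles, 2 and 2 arrays) and within letter x (downward triangles, 2 and 3 arrays). The intervals of Eln and Fbln1 reach 0, and the letter x value exceeds the letter e value for every gene but Fbn2.

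The levels of cell type markers moved with these genes on some arrays. Of 9 fibroblast markers outside the matrix, 8 had a higher mean in Ezh2-deficient hearts, as had 48.4% of all genes, 0 passed limma's test, and 6 were higher at an unadjusted p under 0.05, against 5.77% of all genes. Their median difference was 0.30. Their mean, centred on the wild-type mean, ranged from 0.20 to 0.50 in Ezh2-deficient and from -0.30 to 0.16 in wild-type hearts, and their summed level on the log2 scale from 13.47 to 13.71 and from 13.03 to 13.41. The fibroblast regulator Meox1 differed by 0.93 (SE 0.19, adjusted p = 0.129), whereas the fibroblast receptor Pdgfra differed by 0.15 (SE 0.10, adjusted p = 0.609).

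Vascular smooth muscle is the main maker of elastin in arteries. Of 10 smooth muscle markers 8 had a higher mean, as had 48.4% of all genes, and 0 passed by limma. The 2 at an unadjusted p under 0.05, Myocd (-0.25) and Synpo2 (-0.17), were lower, against 5.78% of all genes. The mean of the list ranged from -0.08 to 0.24 in Ezh2-deficient and from -0.18 to 0.07 in wild-type hearts, and the summed level from 12.91 to 13.21 and from 12.43 to 13.19. Acta2, smooth muscle actin, was lowest in wild-type array 5, at 10.89, as were Smtn, Lmod1, Actg2 and 7 of the 9 elastic fibre genes. Myh11, Cnn1, Myocd and Synpo2 were instead lowest in Ezh2-deficient array 3. Mylk was lowest in wild-type array 2, and Tagln in wild-type arrays 2 and 3. Of 8 pericyte markers 0 passed by limma, with a median difference of 0.07, and 1 was lower at an unadjusted p under 0.05, against 5.78% of all genes.

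Of 12 endothelial markers all had a higher mean, 0 passed by limma and 3 were higher at an unadjusted p under 0.05 (median difference 0.22), where 48.4% of all genes had a higher mean and 5.77% were higher at that p. Their list mean ranged from 0.20 to 0.33 in Ezh2-deficient and from -0.34 to 0.25 in wild-type hearts, and their summed level from 14.00 to 14.08 and from 13.46 to 14.05. Of 7 valve and cartilage-like markers all had a higher mean (median 0.27), against the same 48.4% of all genes. Of the 7, 0 passed and 6 were higher at an unadjusted p under 0.05, against the same 5.77% of all genes. Among the 6 were the secreted matrix genes Cilp (0.85) and Comp (0.51). On every array 2 of the 7, Chad and Tnmd, read below the array median. That list ranged from 0.25 to 0.43 in Ezh2-deficient and from -0.12 to 0.11 in wild-type hearts, and its summed level from 10.31 to 10.55 and from 9.96 to 10.14. Of 7 endocardial and lymphatic markers 6 had a higher mean (median 0.23), against the same 48.4% of all genes, and 0 passed by limma. The 1 with a lower mean was Prox1 (-0.17). At an unadjusted p under 0.05, 4 were higher, against 5.77% of all genes. Among these were Npr3, a natriuretic peptide receptor of the endocardium (0.81), and Plvap, a protein of endothelial diaphragms (0.53). The groups overlapped at Npr3 and at Plvap. The mean of that list ranged from 0.17 to 0.41 in Ezh2-deficient and from -0.07 to 0.08 in wild-type hearts, without overlap, and its summed level from 11.57 to 12.01 and from 11.37 to 11.58. All 9 macrophage markers had a higher mean (median 0.19), as had 48.4% of all genes, and 0 passed limma's test. At an unadjusted p under 0.05, 0 were higher and 0 lower, against 5.77% and 5.78% of all genes. Their mean ranged from 0.04 to 0.39 in Ezh2-deficient and from -0.32 to 0.17 in wild-type hearts, and their summed level from 12.39 to 12.82 and from 12.07 to 12.61.

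Of 11 cardiomyocyte markers 10 had a lower mean (median -0.06), as had 10296 of all 19935 genes, and 0 passed by limma. The troponin gene Tnni3 (-0.17) was the 1 lower at an unadjusted p under 0.05, against 5.78% of all genes. Tnni3 and Tnnt2 lay lower in every Ezh2-deficient heart than in any wild-type heart, as did 436 of all 19935 genes. What part these cell types have in the differences of the elastic fibre genes was not tested.

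**Figure D3:**
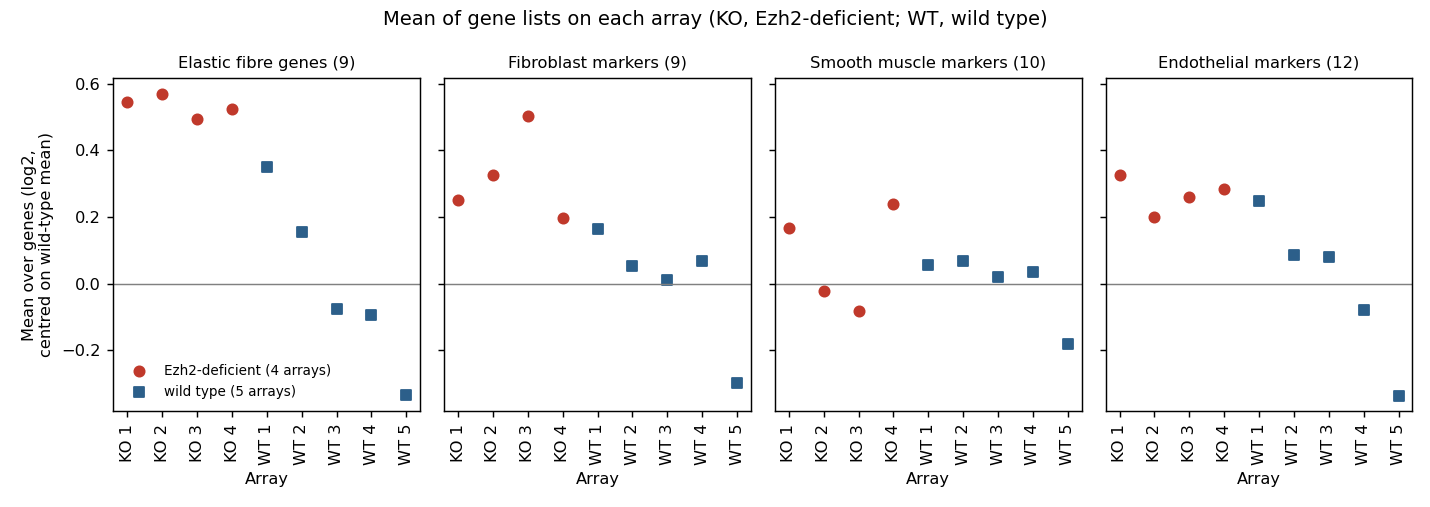
Mean of the 9 elastic fibre genes and of fibroblast, smooth muscle and endothelial markers (log2, centred on the wild-type mean, vertical axis) on each array, Ezh2-deficient in circles and wild type in squares. The elastic fibre mean lies between 0.49 and 0.57 in every Ezh2-deficient heart, and wild-type array 5 is the lowest in all 4 panels.

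The other genes of elastic fibre assembly were taken from 5 lists, which held 77 genes, of which 74 were measured. Of these Tgfb3 rose and 73 did not pass limma's test, and 63 had a higher mean, as had 48.4% of all genes. At an unadjusted p under 0.05, 32 were higher and 1 lower, against 5.77% and 5.78% of all genes. The groups did not overlap at 17 of the 74, each time with Ezh2-deficient hearts above (2.1% of all genes).

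Among 21 measured genes of assembly and crosslinking 15 had a higher and 6 a lower mean (median difference 0.12), where 48.4% of all genes had a higher mean. In limma's test 0 passed, and 10 were higher and 0 lower at an unadjusted p under 0.05, against 5.77% and 5.78% of all genes. Lox, the lysyl oxidase that starts the crosslinks of elastin and collagen, read 6.92, 6.76, 6.63 and 6.72 in Ezh2-deficient hearts, against 6.53, 6.12, 6.35, 6.09 and 6.01 in wild-type hearts. Its groups did not overlap, and all its values lay below the array medians (difference 0.53, SE 0.11, adjusted p = 0.129). Loxl3, an oxidase of the same family, had the next smallest p of this list (difference 0.22, SE 0.05, adjusted p = 0.170). Ltbp4, whose product guides fibulin-5 to microfibrils, read 10.98, 10.97, 11.15 and 10.95 in Ezh2-deficient hearts, against 10.70, 10.69, 10.54, 10.29 and 9.90 in wild-type hearts. Its groups did not overlap (difference 0.59, SE 0.15, adjusted p = 0.222). Hmcn1, which encodes the fibulin relative hemicentin-1, followed with a difference of 0.23 (SE 0.06, adjusted p = 0.241).

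All 8 proteoglycan and glycoprotein partners had a higher mean (median 0.39), as had 48.4% of all genes. Of the 8, 0 passed limma's test and 4 were higher at an unadjusted p under 0.05, against 5.77% of all genes. Bgn, whose proteoglycan biglycan binds tropoelastin and microfibrils, read 11.95, 11.95, 11.89 and 11.83 in Ezh2-deficient hearts, against 11.42, 11.20, 11.16, 11.14 and 10.69 in wild-type hearts. The groups lay well apart (difference 0.78, SE 0.12, adjusted p = 0.093), and Bgn passed with array weights (0.73, adjusted p = 0.0387) and without wild-type array 5 (0.68, adjusted p = 0.0193). Vcan, the large proteoglycan versican that binds fibrillin and fibulins, differed by 0.88 (SE 0.20, adjusted p = 0.177), and Fn1, the fibronectin on which microfibrils assemble, by 0.87 (SE 0.19, adjusted p = 0.157). Nid2, a basement membrane nidogen, differed by 0.44 (SE 0.18, adjusted p = 0.410).

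Of 13 receptor genes 12 had a higher mean (median 0.20), as had 48.4% of all genes, and 0 passed limma's test. At an unadjusted p under 0.05, 6 were higher, against 5.77% of all genes. The integrin subunits Itgb3, Itgb5 and Itgav, which pair to bind the RGD site of fibrillins and fibulin-5, differed by 0.24 (SE 0.07), 0.21 (SE 0.07) and 0.21 (SE 0.07), with adjusted p from 0.288 to 0.313. Itga4, part of the integrin that binds emilin-1, differed by 0.20 (SE 0.08, adjusted p = 0.389).

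Of 17 elastases, related proteases and their inhibitors 0 passed limma's test (median difference 0.07). There were 5 higher and 1 lower at an unadjusted p under 0.05, against 5.77% and 5.78% of all genes. Ctsk, the collagen- and elastin-cleaving cathepsin K, read 7.87, 8.09, 7.99 and 7.64 in Ezh2-deficient hearts, against 7.34, 7.18, 7.48, 7.41 and 7.45 in wild-type hearts. The groups did not overlap (difference 0.53, SE 0.09, adjusted p = 0.118), and Ctsk passed with the title letter as a block (0.55, adjusted p = 0.0302) and with letter and prime as a block (0.56, adjusted p = 0.0411). Mmp2, a gelatinase, differed by 0.62 (SE 0.19, adjusted p = 0.292). Of the inhibitors of such proteases, Timp2 differed by 0.48 (SE 0.12, adjusted p = 0.213), and Timp1 by 0.85 (SE 0.28, adjusted p = 0.330). Timp1 was highest in Ezh2-deficient array 1, at 9.22 against 8.41, 7.64 and 7.74 in the other Ezh2-deficient hearts and 7.08 to 7.54 in the wild-type hearts, and without that array it differed by 0.53. Timp4, the 1 gene of this list that was lower at an unadjusted p under 0.05, differed by -0.56 (SE 0.24, adjusted p = 0.453), and Timp3 by 0.215 (SE 0.14, adjusted p = 0.622); the groups overlapped at both.

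Of 15 genes of the growth factors held by microfibrils and their signalling, 1 passed limma's test (median difference 0.22), against 0.0451% of all genes. Higher at an unadjusted p under 0.05 were 7 and lower 0, against 5.77% and 5.78% of all genes. Tgfb3, a TGF-beta ligand kept latent on microfibrils, read 9.09, 9.12, 9.13 and 9.12 in Ezh2-deficient hearts, against 8.65, 8.59, 8.60, 8.54 and 8.27 in wild-type hearts. It rose by 0.58 (SE 0.07, adjusted p = 0.0407), but its call was lost in 11 of 21 alternatives, with differences from 0.49 to 0.65. One of these adjusted for the Y-linked mean (0.58, limma adjusted p = 0.1002). The single arrays whose removal ended it were wild-type arrays 2, 3 and 4 and each of the 4 Ezh2-deficient arrays (adjusted p = 0.0725 to 0.147). The TGF-beta target Smad7, a feedback inhibitor, differed by 0.42 (SE 0.07, adjusted p = 0.108) and passed with array weights (0.38, adjusted p = 0.0476) and with letter and prime as a block (0.42, adjusted p = 0.0489). The receptor Tgfbr2 differed by 0.36 (SE 0.08, adjusted p = 0.168) and the ligand Tgfb2 by 0.44 (SE 0.10, adjusted p = 0.190).

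**Figure D4:**
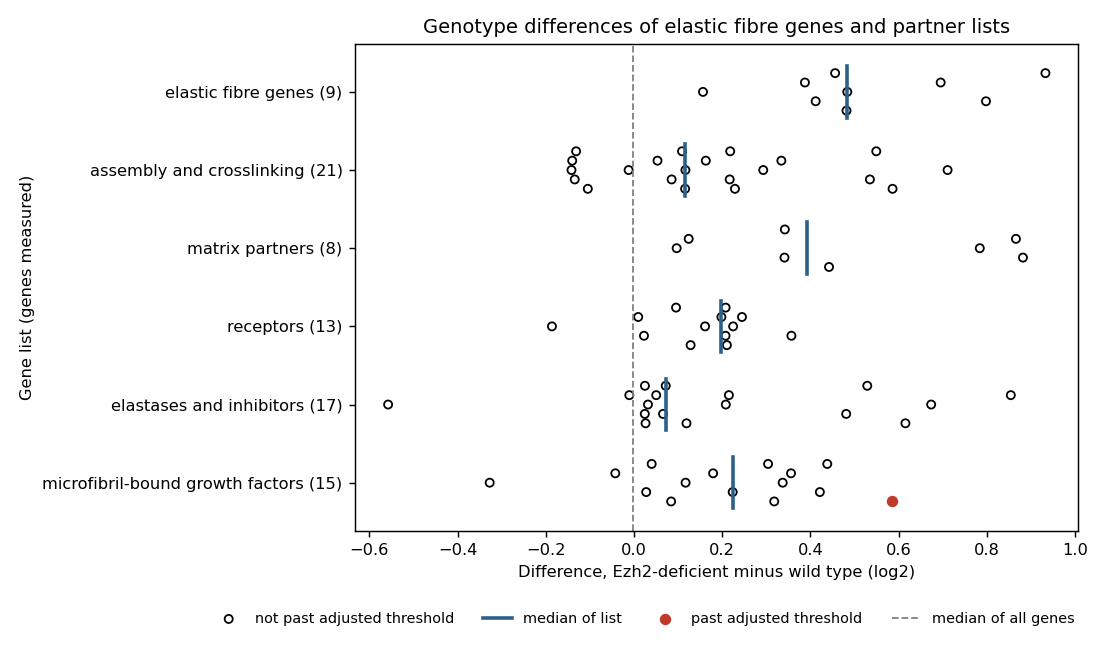
Difference of every measured gene (log2, Ezh2-deficient minus wild type, horizontal axis) in the elastic fibre set and the 5 partner lists, with each list's median as a bar and the median of all genes as a dashed line. The 9 elastic fibre genes have the highest median, 0.48, and Tgfb3 is the 1 gene past the adjusted threshold.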

How the data were processed

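Per the submitters' processing notes, the log2 values the authors deposited were computed by RMA in Affymetrix Power Tools. Their log2 scale is read from their range, 2.18 to 15.0. RMA as commonly run gives all arrays a shared distribution, so a change common to all genes cannot be seen. No version, setting or detection call is given in the sources used here, and 0 other columns of per-sample values were present. Total RNA of 4 Ezh2-deficient and 5 wild-type hearts was hybridised, 1 array per heart, grouped by the description label. Nothing says how samples shared litters or days.

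Probe sets with 1 gene symbol, 21780 of 28815, were named. The test was limma's lmFit and eBayes (limma 3.58.1, R 4.3.3) with genotype as the sole term, two-sided, with Benjamini-Hochberg adjustment over all probe sets and a threshold of 0.05. The number of arrays limits precision (median standard error 0.07). The fit was tested on simulated data. The members and lists were chosen with earlier results of these data known. Named were all members, Ezh2, up to 4 genes of smallest p per partner list and the 3 nearest profiles; markers, Timp3 and Timp4 are named besides, some after their values were seen. Alternatives covered normalization, dim probe sets, title letter, sex, array weights, variance model and arrays left out. Protein sequences were not used here.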

Additional observations from a re-analysis of the deposited data

Results flagged for a closer look

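Fbln1 read 9.90 in Ezh2-deficient array 1, far below the other 3 Ezh2-deficient hearts (10.23, 10.25 and 10.23) for the spread of that group. It was the 1 such value among 18 gene and group combinations examined, where chance gives about 1 in 20.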

How the results depend on the processing

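Over 21 alternatives the median difference of the 9 measured genes stayed between 0.23 (within title letter e) and 0.62 (within letter x), and between 0.40 and 0.53 without 1 array; without wild-type arrays 4 and 5 it was 0.36. The sign of a gene turned once: Fbln1 was -0.0675 within letter e. Genes of the set past the threshold numbered 0, but 1 with letter and prime as a block, and 0 to 1 without 1 array. Members higher at an unadjusted p under 0.05 numbered 7 with all arrays, against 5.77% of all genes. They numbered 1 within letter e (3.37% of all genes) and 9 within letter x (5.67%). With the letter as a block, letter and prime as a block, or array weights, they numbered 8 (6.67%, 6.88% and 6.51% of all genes). Without 1 array they numbered 7 to 8, against 4.18% to 6.9% of all genes, and in the other settings 7. Of the partner genes, 1 passed with all arrays, 2 with the letter as a block, 3 with letter and prime as a block, 3 with array weights, 0 with the Y-linked or the atrial covariate or within either letter, and 0 to 2 without 1 array. Within letters the arrays are fewer, and over all probe sets 0 passed there; 10 passed with all arrays, 17 with centred medians, dim probe sets left out or the letter as a block, 27 with letter and prime, 37 with array weights, 5 without wild-type arrays 4 and 5 or with the atrial covariate, 3 with the Y-linked covariate and 3 to 15 without 1 array. The median difference of all probe sets was -0.02 to 0.001 in these settings. Averaging or comparing probe sets of a gene was not run, since each member had 1. The cause of the other changes was not tested. No paired analysis was possible because replicate numbers were given in sample order and pair nothing.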
